A study of Mus musculus with 22 samples.

Results

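Narrow promoter peaks of coding genes are stretches of H3K27me3 under 2000 bp wide that the deposited annotation places at the promoter (within 3 kb of an annotated start site) of a protein-coding gene off the X chromosome. They numbered 1504 of 19034 peaks (7.90%) and were assigned to 1416 genes, of which 1332 had 1 such peak, 80 had 2 and 4 had 3 or more. The width limit chose them, and no difference between genotypes did. H3K27me3 was mapped by CUT&RUN, in which an antibody tethers a nuclease that releases the DNA beside marked nucleosomes, in whole retina of C57BL/6 mouse embryos at embryonic day 18.5. The 5 conditional knockout animals (cKO) were Jarid2 fl/fl; Rx-cre. Of the 5 controls, replicates 2, 4 and 5 were Jarid2 fl/+, replicate 3 was Jarid2 fl/fl, and replicate 1 was Jarid2 fl/+; Rx-cre, so that it carried Cre and could lose 1 allele. The labels' protocols name the Cre as Rax-CreERT2, which is under the control of the eye-field gene Rax and active only after tamoxifen. All dams received tamoxifen at E10.5 (75 µg per g), controls included. Batch 1 came from 1 litter and held 2 animals per genotype of both sexes, and batch 2 held 3 male littermates per genotype. A sample was both retinas of 1 animal.

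Polycomb repressive complex 2 (PRC2) places H3K27me3, a mark of silenced developmental genes, mostly as wide domains over CpG-rich start sites. Jarid2 is an accessory subunit that binds DNA and nucleosomes and helps to bring PRC2 to its targets. Between and beside such domains the mark is present at lower levels. In bulk retina, a change in the mark per cell and a change in the share of cells carrying it cannot be told apart.

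Most narrow peaks did not cover a start site. By the deposited annotation 328 lay over one (21.8%, against 69.7% of the 5467 broad promoter peaks, those of 2000 bp or more), 680 lay upstream and 496 downstream. Promoter sequences were taken from RefSeq (GRCm38.p6, the assembly that mm10 represents), as windows from 250 bases before to 50 after a gene's start. A window of the own gene was found for 1173 of the 1450 narrow peaks on the chromosomes that the table covers (80.9%), and in 155 of these it overlapped the peak. The windows below are examples from genes with a changed peak, with Jarid2 for comparison. They do not reach the CpG-rich end of the changed genes: the window of Mad2l2, not printed, holds 41 CG dinucleotides. Capitals mark CG dinucleotides, which read the same on both strands, and each window is printed 5′ to 3′ on the strand of its gene. The Chrna3 window (chr9:55026513-55026812, minus strand) has 48 bases in the peak, and those of Dlg2 (chr7:91090536-91090835, plus strand) and Msgn1 (chr12:11208899-11209198, minus strand) lie in it whole. The windows of Strbp (chr2:37703810-37704109, minus strand) and Jarid2 (chr13:44730524-44730823, plus strand) begin 571 and 1234 bp from their peaks. Msgn1 falls outside the rule for named genes and was chosen after its values were seen.
Chrna3: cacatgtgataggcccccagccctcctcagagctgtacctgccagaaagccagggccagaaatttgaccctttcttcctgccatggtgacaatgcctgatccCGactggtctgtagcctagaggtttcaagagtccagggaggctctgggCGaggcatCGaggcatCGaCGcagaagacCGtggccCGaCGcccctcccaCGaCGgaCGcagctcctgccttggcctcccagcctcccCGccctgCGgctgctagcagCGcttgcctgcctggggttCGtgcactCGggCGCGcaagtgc
Dlg2: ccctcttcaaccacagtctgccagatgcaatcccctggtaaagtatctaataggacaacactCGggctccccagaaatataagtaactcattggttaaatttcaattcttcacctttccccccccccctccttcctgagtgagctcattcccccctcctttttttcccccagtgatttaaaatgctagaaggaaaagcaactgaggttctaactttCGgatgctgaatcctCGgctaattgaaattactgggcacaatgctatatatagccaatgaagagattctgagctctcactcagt
Msgn1: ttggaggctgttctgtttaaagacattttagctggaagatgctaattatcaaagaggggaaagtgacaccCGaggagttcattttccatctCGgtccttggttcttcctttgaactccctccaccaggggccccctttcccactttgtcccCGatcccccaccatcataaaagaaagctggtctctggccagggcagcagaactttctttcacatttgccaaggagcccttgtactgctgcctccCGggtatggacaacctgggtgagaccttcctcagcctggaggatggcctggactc
Strbp: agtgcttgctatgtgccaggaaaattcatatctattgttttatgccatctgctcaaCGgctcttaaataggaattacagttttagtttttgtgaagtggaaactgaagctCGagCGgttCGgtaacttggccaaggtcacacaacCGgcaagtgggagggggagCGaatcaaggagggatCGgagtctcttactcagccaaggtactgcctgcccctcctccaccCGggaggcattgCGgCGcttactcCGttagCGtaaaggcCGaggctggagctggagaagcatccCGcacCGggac
Jarid2: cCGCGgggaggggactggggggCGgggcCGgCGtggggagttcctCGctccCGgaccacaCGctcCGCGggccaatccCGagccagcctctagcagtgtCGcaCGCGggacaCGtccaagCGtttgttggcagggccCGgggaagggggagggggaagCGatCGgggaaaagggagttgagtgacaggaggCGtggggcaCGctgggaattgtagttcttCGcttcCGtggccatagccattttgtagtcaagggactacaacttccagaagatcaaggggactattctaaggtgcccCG

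The Dlg2 window holds 3 CG dinucleotides and that of Msgn1 holds 4, whereas Strbp has 15, Chrna3 18 and Jarid2 24. At least 1 CG occurred in 98.2% of the 1173 windows and in 95.4% of all 21263 coding windows, so its presence does not set the group apart. The ratio of observed to expected CG had a median of 0.603 over the 1173 windows and of 0.567 over all coding windows. It was above 0.6 in 50.5% and 47.6% of them. Where the window overlapped the narrow peak, the median ratio was 0.425 and 23.9% of the 155 windows were above 0.6. Narrow peaks that overlapped the window of their gene thus lay more often at CpG-poor starts than the table as a whole, as a description without a test.

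Narrow peaks held little signal. Their median width was 1261 bp (601 to 1991 bp) and their median total over the 10 animals was 115.5 reads (28 to 720), against 1074 reads at broad promoter peaks. Animals had 1688368 to 2864080 reads in peaks, of which narrow peaks took 0.799% (control replicate 1) to 1.02% (control replicate 5). Levels are given as CPM, reads per 1000000 TMM-scaled reads in tested peaks. Per length, the median control level was 4.27 CPM per kb at narrow and 8.63 CPM per kb at broad promoter peaks. The spread between animals in narrow peaks was close to counting noise: the chi-square per degree of freedom between animals of a group and batch was 0.504 to 1.03 there and 1.05 to 2.53 over all peaks. For duplicates of 1 animal in narrow peaks it was 0.783 to 1.02. The smallest values, 0.542 and 0.504, came from the pairs of batch 1 and lie below counting noise; the reason was not tested. These animals differed over all peaks (2.53 and 1.73), but each pair was a male and a female, and all peaks include the X chromosome. The labels give them as separate animals, so each was kept as a sample. At a given spread the chi-square per degree of freedom rises with the reads per peak. Narrow and all peaks thus cannot be compared by it for the spread between animals.

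The comparison of cKO with control asked where this thin signal differed between the genotypes. All cKO animals carried Cre, and of the controls only replicate 1 did. Effects of Cre and of Jarid2 loss therefore cannot be told apart here. Of the 1504 narrow peaks, 1040 had enough reads to be tested, and 19 of these fell and 8 rose in cKO (edgeR quasi-likelihood test with a batch term, Benjamini-Hochberg adjusted p under 0.05). The genes with lower signal included Lrrn3, Chrna3, Dlg2 and Adgrl3, which encode neuronal membrane and synaptic proteins, and Tcf7l2, a transcription factor of Wnt signalling. Genes of other kinds were among the 19 as well, such as Eif4e3 (a cap-binding protein) and Msgn1 (a mesoderm factor), and no shared role was tested. Those with higher signal included Cyp2r1, a vitamin D hydroxylase, and F12, a clotting factor. The 27 changed peaks were 2.60% of those tested, against 8.84% of all 16307 tested peaks (7.38% lower, 1.46% higher) and 5.49% of broad promoter peaks. An unadjusted p under 0.05 was reached by 122 narrow peaks (11.7%), against 21.5% of all peaks. The median decrease among the lower peaks was 1.62-fold (1.383 to 3.34), and the median increase among the higher ones was 1.73-fold (1.51 to 1.98). Against the mean of the controls in the same batch, all 5 cKO animals were lower at 19 of 19 lower peaks. All 5 were higher at 7 of 8 higher peaks, Dpep2 being the exception with 4. Calling on these same values favours such agreement, so it is a description and adds no evidence. DESeq2 called only Lrrn3 (1 lower, 0 higher), with 31 narrow peaks at an unadjusted p under 0.05. It gave an adjusted p to 636 narrow peaks, and over the whole table it called 797 of 14236. Without the batch term edgeR called 3 lower peaks (Lrrn3, Tcf7l2, Micu3) and 0 higher, with 107 at an unadjusted p under 0.05. Over all 16307 tested peaks it then called 359, in place of 1442. With limma-voom 23 and 8 narrow peaks were called, of which 24 were among the 27, and 1439 over all peaks. Offsets fitted to the trend with abundance gave 25 lower and 4 higher peaks, so that 86.2% of calls were lower in place of 70.4%, and factors from narrow peaks alone gave 25 and 5 (83.3%).

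**Figure D1:**
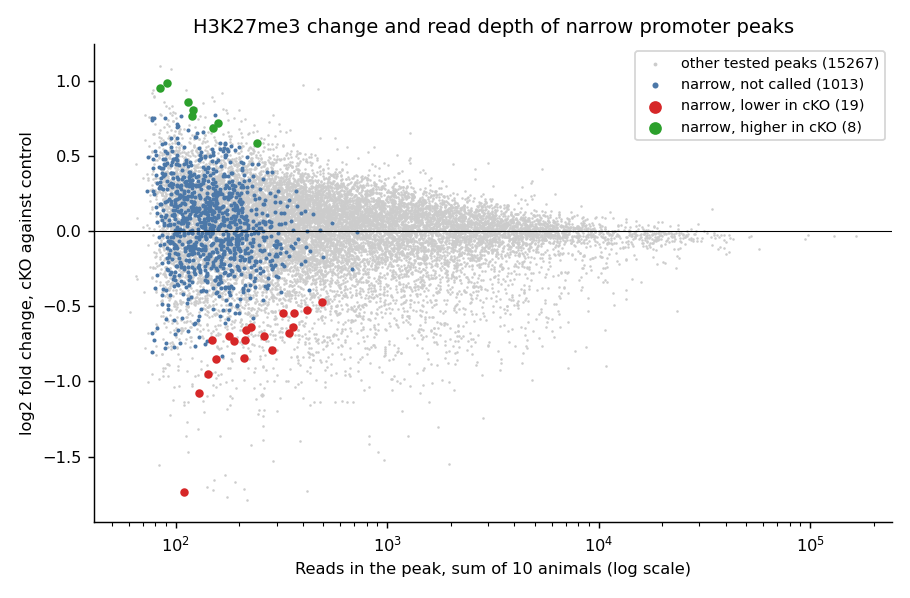
Each point is a tested peak, with its reads summed over 10 animals on a log axis and its log2 fold change of cKO against control. The 1040 narrow promoter peaks (blue, red where lower, green where higher) lie at the left, where the scatter of the 15267 other tested peaks (grey) is widest, and the called ones lie on its outer edge.

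The share of changed peaks rose with the number of reads, in narrow peaks as in others. Among peaks with under 100 reads, 2 of 148 narrow peaks (1.35%) and 2.32% of other peaks were called. At 100 to under 200 reads the shares were 1.79% (12 of 670) and 2.89%, and at 200 to under 400 reads 5.29% (11 of 208) and 5.88%. At 400 to under 800 reads 2 of 14 narrow peaks (14.3%) and 10.8% of other peaks were called. The median SE of the log2 fold change in narrow peaks went from 0.27 in the lowest to 0.13 in the highest of these ranges. At matched reads the shares of narrow and other peaks thus lay much closer than the 2.60% and 9.27% over all depths, a description without a test. The 2 peaks called under 100 reads, Cyp2r1 and Faf1, had changes of 1.98-fold and 1.94-fold, and smaller ones were not called at this depth.

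**Figure D2:**
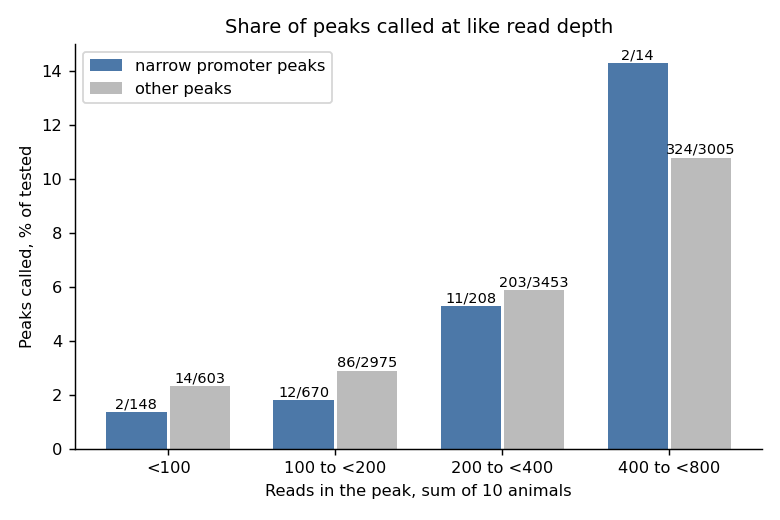
Bars give the percent of tested peaks that were called in either direction, by reads in the peak summed over 10 animals, for narrow promoter peaks (blue) and other peaks (grey), with called and tested numbers above each bar. Both classes climb with the reads, narrow peaks from 1.35% to 14.3%.

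The 5 lower peaks with the smallest p were at Lrrn3, Chrna3, Tcf7l2, Micu3 and Eif4e3. Lrrn3 encodes a neuronal membrane protein with leucine-rich repeats, and its peak (chr12:41481930-41483800, mm10), its only peak in the table, lay 2631 bp downstream of the start. Controls 1 to 5 had 10.45, 17.0, 17.4, 16.5 and 21.3 CPM, and cKO animals 1 to 5 had 7.99, 7.01, 11.7, 10.2 and 9.88 CPM. The groups overlapped only in control replicate 1, the control with Cre, and within each batch they did not overlap. This is a log2 fold change of -0.79 ± 0.16 (SE), with an edgeR adjusted p of 0.00183. The nearest peak of 2000 bp or more, 50480 bp away in an intron of Gm47368, was lower as well, at -0.67 ± 0.10 (edgeR adjusted p = 1.64e-04). Chrna3 encodes a subunit of neuronal nicotinic acetylcholine receptors. Its peak, annotated over the start (chr9:55024930-55026560), contained 48 bases of the window printed above. It held 12.9, 13.8, 24.2, 23.1 and 21.7 CPM in controls and 6.93, 10.02, 13.7, 16.5 and 14.6 CPM in cKO (log2 fold change -0.64 ± 0.13, edgeR adjusted p = 0.00248). Batch 1 animals were lower than batch 2 animals of their own genotype, so that the groups overlapped across batches and not within them. The nearest such peak, at Chrna5 in the same receptor gene cluster, lay 39690 bp away and had -0.19 (adjusted p = 0.113).

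Tcf7l2, a DNA-binding partner of beta-catenin, showed a decrease beside its promoter domain. The narrow peak (chr19:55900200-55901840) lay 1891 bp downstream of a start. It held 5.48, 8.18, 7.60, 8.24 and 10.4 CPM in controls and 3.20, 2.50, 4.82, 4.90 and 2.82 CPM in cKO. Every cKO value was below every control value, with a 2.11-fold difference (log2 fold change -1.08 ± 0.22, edgeR adjusted p = 0.00251). The domain over the start, 2750 bp away, went from a control mean of 144 ± 12.7 CPM to 133 ± 6.31 CPM (SD, n = 5 animals per genotype), with a log2 fold change of -0.11 (adjusted p = 0.396). Whether the changes of these neighbours differ was not tested.

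Micu3, a regulator of mitochondrial calcium uptake in neurons, had the lowest log2 fold change among tested narrow peaks. Its peak of 761 bp (chr8:40305060-40305820) held 9.96, 1.26, 9.05, 8.24 and 7.70 CPM in controls and 4.26, 1.00, 2.01, 1.78 and 2.35 CPM in cKO (log2 fold change -1.74 ± 0.36, edgeR adjusted p = 0.00269). Control replicate 2 lay with the cKO animals, and the other controls lay above all of them. Eif4e3 encodes a cap-binding protein of the eIF4E family, and its peak (chr6:99664990-99666360) lay 411 bp downstream of the start. It held 12.9, 18.9, 22.4, 17.3 and 24.5 CPM in controls and 8.53, 9.02, 13.3, 13.4 and 15.05 CPM in cKO (log2 fold change -0.68 ± 0.15, edgeR adjusted p = 0.00395). The groups did not overlap within either batch.

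Of the 10 lower peaks named by the size of p, the other 5 had smaller or less certain changes. The Dlg2 peak covered a start of this gene of a postsynaptic scaffold (chr7:91089400-91091280), and had 12.0 ± 3.42 CPM against 7.08 ± 2.69 CPM in cKO (log2 fold change -0.72 ± 0.20, with edgeR's adjusted p = 0.0204). The 4 wider peaks over other Dlg2 starts had log2 fold changes from -0.32 to 0.09 and were not called. Slc16a7, a monocarboxylate transporter, had 12.3 ± 4.21 CPM against 6.67 ± 2.50 CPM in cKO (log2 fold change -0.84 ± 0.22, adjusted p = 0.0157). Control replicate 1 had 4.98 CPM there, within the cKO range of 4.51 to 9.88 CPM. Pdzrn4, which encodes a RING finger protein with PDZ domains, fell from 14.1 ± 5.89 to 8.68 ± 4.25 CPM, where the SDs include the difference between batches (log2 fold change -0.70 ± 0.17, adjusted p = 0.00821). Of 7 other tested Pdzrn4 peaks, 4 were lower (-0.69 to -0.36), and a domain over another start was not called (0.06). Ccdc85a, a coiled-coil protein gene, and Chsy3, a chondroitin sulfate synthase gene, had log2 fold changes of -0.52 and -0.47 (adjusted p = 0.0105 and 0.0153). Chsy3 had 1 of the 3 highest control levels per narrow peak (26.3 ± 2.72 CPM). The others were Bend3, a chromatin repressor gene, at 33.4 ± 5.47 CPM, and Pard6b, a cell polarity gene, at 33.0 ± 2.35 CPM. Neither was called, with log2 fold changes of -0.25 ± 0.12 (adjusted p = 0.236) and -0.01 ± 0.10 (adjusted p = 0.991).

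The 8 higher peaks had control means of 2.55 to 8.95 CPM, against 7.24 to 26.3 CPM at the 19 lower ones. Cyp2r1 (chr7:114564340-114565450, at -1368 bp from its start) held 2.99, 3.15, 3.26, 1.96 and 2.72 CPM in controls and 4.80, 6.01, 5.22, 7.13 and 4.70 CPM in cKO. No values overlapped, and the difference was 0.99 ± 0.25 on the log2 scale (edgeR adjusted p = 0.0197). Strbp, an RNA-binding protein gene, had 7.47, 5.66, 4.70, 4.31 and 5.89 CPM in controls and 8.53, 9.52, 8.04, 9.35 and 10.3 CPM in cKO (chr2:37704680-37706410), again with no overlap. Its log2 fold change was 0.72 ± 0.19 (edgeR adjusted p = 0.0244). Faf1, which encodes a FAS-associated factor, likewise showed no overlap, with 1.89 to 3.26 CPM in controls and 4.45 to 6.40 CPM in cKO (log2 fold change 0.96 ± 0.25, adjusted p = 0.0339). F12 had 2.52 to 4.70 CPM in controls and 4.26 to 10.3 CPM in cKO, so that the groups met across batches (log2 fold change 0.86 ± 0.25, adjusted p = 0.0313). Dpep2, a dipeptidase gene, had 3.73 CPM in cKO replicate 1, within the control range of 2.90 to 5.49 CPM, and 7.05 to 8.84 CPM in the other cKO animals (0.81 ± 0.23, adjusted p = 0.0327). The peaks of Zfp964, a zinc finger gene, Mef2b, a MADS-box transcription factor gene, and Nubpl, a gene of complex I assembly, had log2 fold changes of 0.69, 0.77 and 0.59, with adjusted p from 0.0428 to 0.0454. In the fits that each left out 1 animal (10 per peak, but 8 for Faf1, which did not pass the read filter in the other 2), the higher calls were kept in 2 to 7, and none in every fit. The number of higher peaks was 3 without control replicate 2, 3 or 4 or cKO replicate 4, 4 without control replicate 5 or cKO replicate 2 or 5, and 5 without cKO replicate 1.

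**Figure D3:**
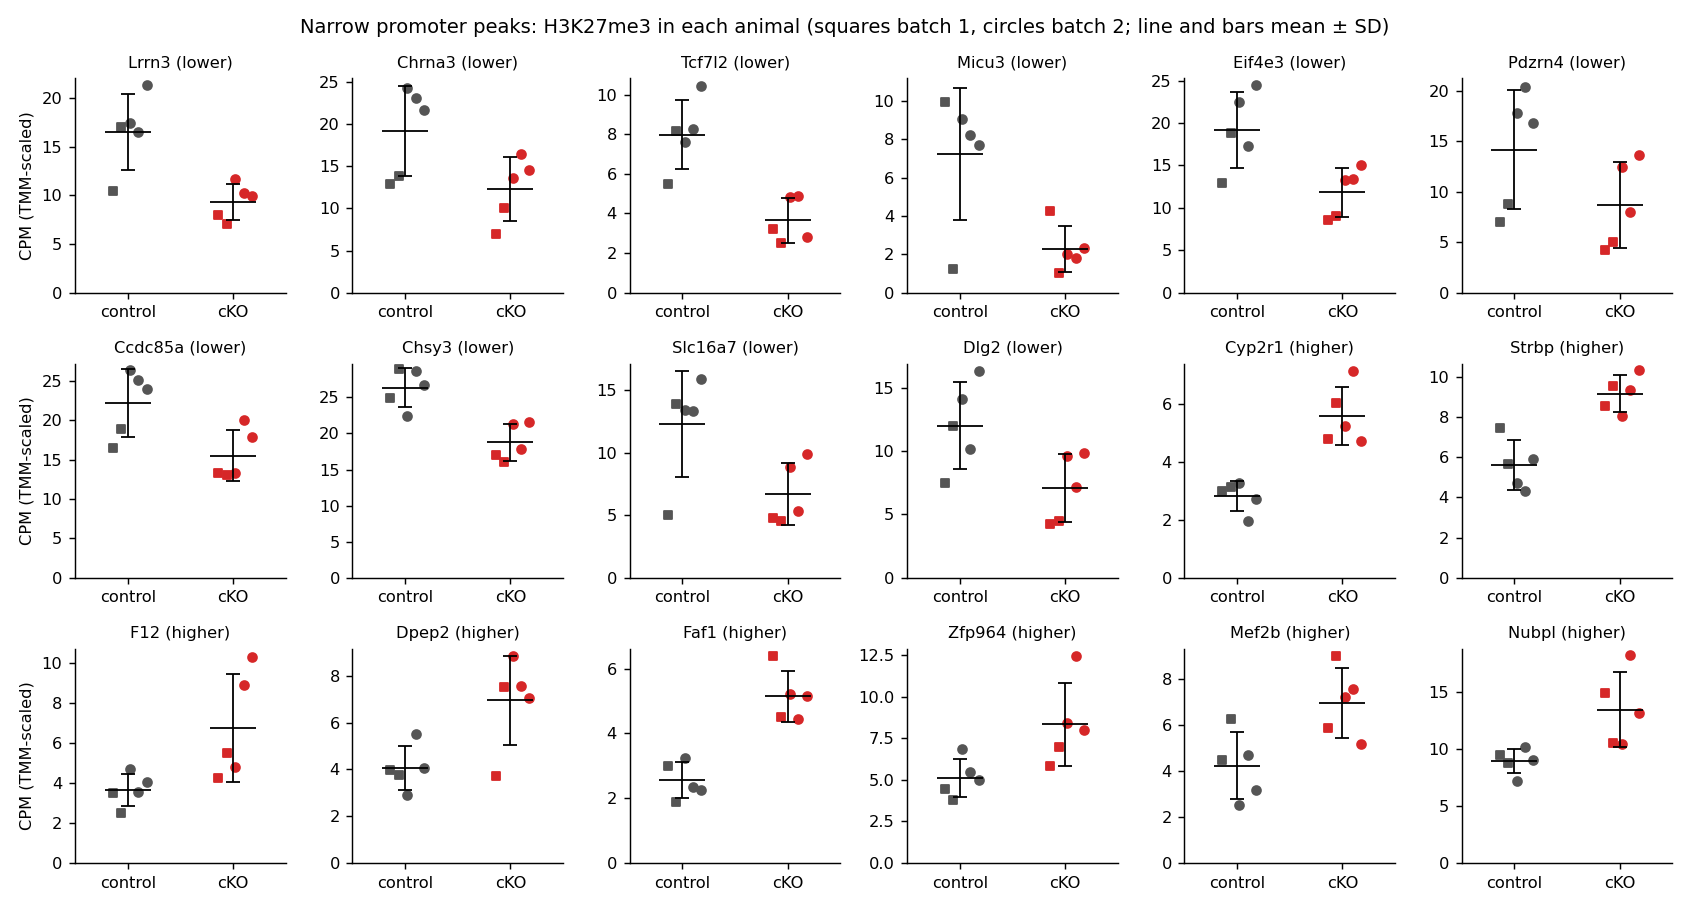
Each panel is 1 called narrow peak, with CPM (TMM-scaled) on the vertical axis, a point for each of 5 control (grey) and 5 cKO animals (red), squares for batch 1 and circles for batch 2, and the mean ± SD in black. The 10 lower peaks stand first and the 8 higher ones after them, and batch 1 controls lie within or below the range of batch 2 cKO animals at Chrna3, Pdzrn4 and Ccdc85a.

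The remaining 9 lower peaks fall outside the rule for named genes except Adgrl3, and are named after their values were seen. Adgrl3 encodes a latrophilin, an adhesion receptor of synapses, and its peak over a start (chr5:81659150-81660100) held 4.98, 8.81, 10.1, 9.81 and 8.60 CPM in controls and 2.66, 4.01, 5.22, 1.78 and 7.995 CPM in cKO. The groups overlapped only across batches (log2 fold change -0.95 ± 0.26, edgeR adjusted p = 0.0236). Intronic Adgrl3 peaks downstream were lower as well, at -1.31 ± 0.29 (adjusted p = 0.00492) and -0.91 ± 0.13 (adjusted p = 5.99e-05). Bhlhe22, a bHLH transcription factor of retinal interneurons, had a narrow peak 1946 bp downstream of the start with -0.73 ± 0.21 (adjusted p = 0.0278), beside a domain over the start with -0.16 (adjusted p = 0.178) and a distal peak that was lower (-0.60, adjusted p = 0.00884). Msgn1, a bHLH factor of presomitic mesoderm, fell from 12.0 ± 1.99 to 7.63 ± 1.75 CPM over its start (adjusted p = 0.0266). The rest were at Mad2l2, Dcbld2, Ptchd4, Sh3bp5, Inava and the predicted gene Gm10406, with log2 fold changes from -0.85 to -0.54. Of the 19 lower calls, 5 (Lrrn3, Chrna3, Tcf7l2, Micu3, Eif4e3) were kept in all 10 fits that left out 1 animal, 3 were lost in 1 fit, and 11 in 2 or more. The number of lower peaks was 11 without control replicate 2 and 11 without control replicate 4, and 25 without control replicate 1.

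Called peaks lay apart from wide peaks about as often as narrow peaks in general. The narrow peak was the gene's only peak at 13 of 19 lower and 4 of 8 higher peaks, and 14 and 5 had no peak of 2000 bp or more within 10 kb. Of all 1504 narrow peaks, 803 (53.4%) were the only peak of their gene and 1035 (68.8%) had no such peak within 10 kb. Among tested peaks without a wide neighbour 19 of 738 were called (2.57%), and with one 8 of 302 (2.65%). At the 19 lower peaks the nearest wide peak, at any distance, was called lower 4 times (Lrrn3, Pdzrn4, Dcbld2, Adgrl3), higher 1 time (Sh3bp5) and not at all 14 times. The 4 lower ones lay 50480, 128330, 109760 and 8360 bp away. At the 8 higher peaks the nearest wide peak was called higher 1 time (Mef2b) and was not called 7 times. Of all tested peaks, 7.38% were lower and 1.46% higher. Among the 469 narrow peaks with a wide peak within 10 kb, the nearest wide peak was lower at 7 and higher at 13. Over the 302 pairs of a tested narrow peak and its nearest wide peak, 192 (63.6%) had log2 fold changes of the same sign, and across pairs Pearson's r was 0.24 and Spearman's rho 0.18. Both sides leaned above 0 (205 of the 302 narrow peaks, and a median of 0.09 for the wide peaks), which by itself raises the agreement of sign. These pairs share libraries and scaling and are not independent. Faf1 shows opposite signs within a gene: the narrow peak at -2098 bp from the start rose, while an intronic peak with 29.7 ± 5.10 CPM in controls fell to 19.8 ± 3.50 CPM (a log2 change of -0.55 ± 0.13, edgeR adjusted p = 0.0099).

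The positions of the few lower and higher peaks along the promoter are a description without a test. Of the 1040 tested narrow peaks, 442 lay upstream of the start, 263 over it and 335 downstream. The shares called in either direction were 2.26%, 1.90% and 3.58%. Of the 19 lower peaks, 11 lay downstream of the start, 5 over it and 3 upstream. Of the 8 higher peaks, 7 lay upstream, 0 over the start and 1 downstream. The tested narrow peaks as a whole also had higher log2 fold changes upstream than over the start or downstream. Upstream, 302 of 442 tested peaks (68.3%) had a log2 fold change above 0, with a median of 0.14, and over the start 111 of 263 (42.2%), with a median of -0.04. Downstream the median was 0.02 (52.5% above 0), and over all tested peaks of the whole table it was 0.02 (54.4% above 0). At 2 to 3 kb upstream 95 of 116 peaks (81.9%) were above 0, with a median of 0.23. Depth moved with this order: the median reads of tested peaks were 134 upstream and 164 over the start, and the median log2 fold change of narrow peaks went from 0.13 under 100 reads to -0.11 at 400 to under 800 reads. The part of depth in the order by position was not tested. With offsets fitted to abundance, the upstream median was 0.09 and that over the start -0.08, and scaling by total counts gave 0.18 and 0.01, so that the sign over the start depends on the scaling.

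**Figure D4:**
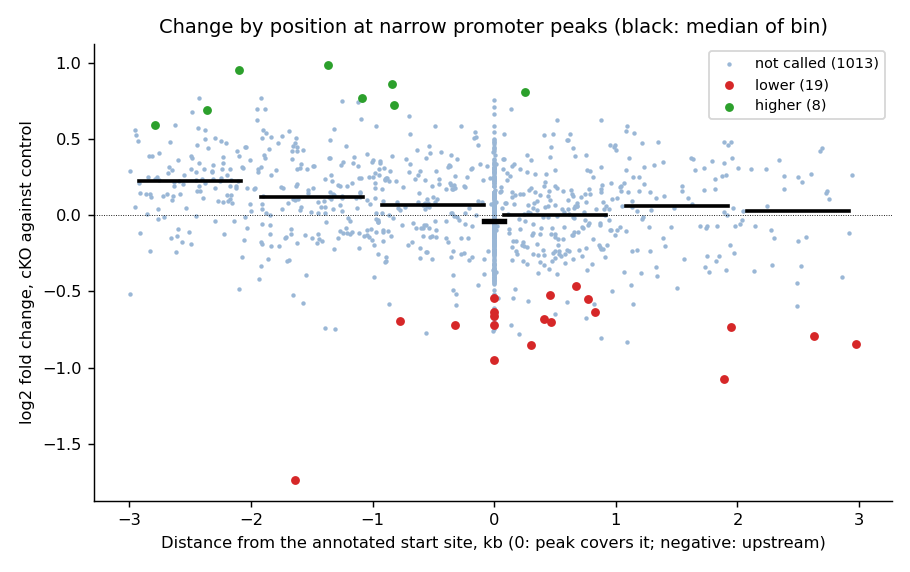
Each point is a tested narrow peak, with its distance from the annotated start site in kb (negative upstream, 0 where the peak covers the start) and its log2 fold change of cKO against control; black lines are medians of the bins. The medians go from 0.23 at 2 to 3 kb upstream to -0.04 over the start. Upstream lie 7 of the 8 higher peaks (green) and 442 of the 1040 tested narrow peaks.

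Lists of retinal cell types and developmental regulators held few narrow peaks, and their shares of the narrow class were below those of the broad class in some lists and not in others. Narrow peaks numbered 0 at the early retinal progenitor list, where broad promoter peaks numbered 15, and 0 at the amacrine and horizontal cell list, against 25. Non-neural transcription factors had 4 narrow and 64 broad peaks (0.266% and 1.17% of each class). Ganglion cell genes had 1 narrow peak, at Gap43, a growth-cone protein gene (-0.24, adjusted p = 0.625), and 22 broad ones. The 3 narrow peaks of bipolar cell genes (0.199%, against 11 broad ones, 0.201%) were at Bhlhe22, Trpm1 and Prkca, of which Prkca was not tested and Trpm1, a cation channel gene, had -0.22 (adjusted p = 0.45). Photoreceptor genes had 2, at Thrb, a thyroid hormone receptor gene (-0.22), and Gngt2, a cone transducin subunit gene (-0.33), neither called, and 11 broad ones. Late progenitor and Müller glia genes had 3 (Aqp4, Id3 and Sox8, 0.199%), with 0 of 2 tested called, and 6 broad ones (0.110%). Lists of other cell types of the eye held few: pigment epithelium 1 (6 broad), vessel and blood cells 2 (10 broad), astrocytes and oligodendrocytes 2 (7 broad), and lens and cornea 1 (9 broad), with 0 called by edgeR. Housekeeping, cell cycle and Hox genes had 0 narrow peaks and 2, 11 and 4 broad ones. Germline genes had 4 narrow and 9 broad peaks (0.266% and 0.165%) and imprinted genes 3 and 22 (0.199% and 0.402%), with 0 narrow ones called. Among these lists with 0 calls, 1 peak had an unadjusted p under 0.05 (Gata4, a non-neural factor), and neither DESeq2 nor limma-voom called any.

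Of PRC2 subunits, Jarid2 and Ezh1, a catalytic subunit, had narrow peaks. The Jarid2 peak (chr13:44728300-44729290) held 3.98 to 5.10 CPM in controls and 2.67 to 6.40 CPM in cKO, with a log2 fold change of -0.07 ± 0.27 (edgeR adjusted p = 0.929). The label of no animal can be checked on this peak, since the mark says nothing of the floxed exons. The Ezh1 peak, at -1887 bp from the start, had 3.62 ± 0.76 CPM in controls and 5.86 ± 2.24 CPM in cKO (0.70, adjusted p = 0.131). PRC1 genes had 3 narrow peaks (Pcgf5, Rnf2 and Scmh1), 2 of them tested and 0 called. Foxp1, the gene in the title of the study, had 0 narrow promoter peaks.

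Large gene families differed in their shares of the narrow and the broad class. Olfactory receptor genes, which encode the odorant receptors of the nose, had 45 narrow and 60 broad promoter peaks (2.99% and 1.10% of each class). Of these 45, 17 were tested, 13 had a log2 fold change above 0 (median 0.31), and 0 were called by edgeR, with 3 at an unadjusted p under 0.05. Of all 1040 tested narrow peaks, 56.6% were above 0 (median 0.05), and 11.7% had an unadjusted p under 0.05. The smallest p were at Olfr223 (-0.67 ± 0.23, adjusted p = 0.107) and Olfr1314 (0.62 ± 0.25, adjusted p = 0.168), which point in opposite directions. Zinc finger genes had 26 narrow and 77 broad promoter peaks (1.73% and 1.41%). Of the 16 tested, 15 were above 0 (median 0.25), against 56.6% of all tested narrow peaks, and 1, Zfp964, was called. Under each of the 5 scalings tried 15 were above 0, with medians from 0.21 to 0.30. These scalings moved the median of all narrow peaks only between 0.003 and 0.099, so their agreement is not separate support. Zfp58 came next, with 6.35 ± 1.42 CPM in controls and 8.69 ± 1.78 CPM in cKO (0.43 ± 0.21, adjusted p = 0.245). These families have near-identical copies, so reads may be placed uncertainly among their members. Solute carriers had 30 narrow and 143 broad peaks (1.99% and 2.62%), with 21 of the narrow ones tested, with Slc16a7 lower and Slc9a9, an endosomal sodium-proton exchanger gene, next (-0.70 ± 0.23, adjusted p = 0.0631). Potassium channels had 10 narrow and 74 broad peaks (0.665% and 1.35%), and 0 of 6 tested were called by edgeR (Kcnk5 -0.57 and Kcnn2 -0.22).

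**Figure D5:**
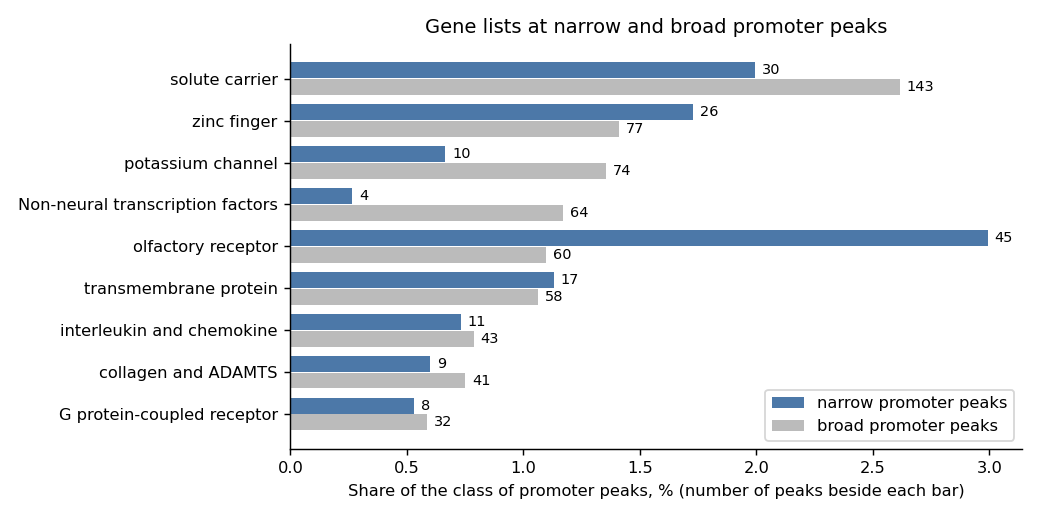
Bars give the share of narrow (blue) and broad (grey) promoter peaks assigned to genes of lists and symbol families with 40 or more promoter peaks, with the number of peaks beside each bar. Olfactory receptors take 2.99% of narrow and 1.10% of broad peaks, and non-neural transcription factors take 0.266% of narrow and 1.17% of broad ones.

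In the other families the tested peaks were too few to set their calls apart from the 2.60% of all tested narrow peaks. Among G protein-coupled receptors, Adgrl3 was 1 of 6 tested that passed, and Adgrl4, an endothelial adhesion receptor gene, had -0.68 ± 0.26 (adjusted p = 0.133). Gata4 and Hnf4a, regulators of heart and liver, had 0.76 ± 0.27 (adjusted p = 0.134) and 0.25 ± 0.25 (adjusted p = 0.672). With edgeR 0 passed of 13 Tmem, 4 protocadherin, 7 collagen and ADAMTS, 6 interleukin and chemokine and 2 keratin peaks tested, and of 4 at genes with an Rpl or Rps symbol. An unadjusted p under 0.05 was reached by 1 Tmem, 1 protocadherin and 1 potassium channel peak and by none in the other families of 0 calls except olfactory receptors, and neither DESeq2 nor limma-voom called a peak in these families. The peaks with the smallest p in these families had log2 fold changes of -0.57 and -0.46 (Tmem108, Tmem229a), 0.66 and -0.44 (Pcdhga2, Pcdhga10), 0.37 and 0.37 (Col9a3, Col1a1), -0.34 and -0.17 (Il9r, Il17rd), and 0.74 and 0.13 (Rps7, Rpl3). In the germline list Smc1b and Fkbp6 had 0.10 and -0.03. Of these, Pcdhga2 was closest to the threshold, with 3.14 to 5.43 CPM in controls and 5.86 to 8.91 CPM in cKO without overlap (adjusted p = 0.0923).

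The batches were compared for the size of the change. Each of the 27 called peaks moved the same way in batch 1 and batch 2, which calling on both together favours. Of tested narrow peaks 654 (62.9%) had the same sign, against 66.2% of all tested peaks. No narrow peak differed in genotype effect between batches by edgeR (0 called, 32 at an unadjusted p under 0.05, smallest adjusted p = 0.721) or limma-voom (0 called, 36 at an unadjusted p under 0.05), where edgeR called 0.0123% of all tested peaks and 3.94% had an unadjusted p under 0.05. Inava spanned the widest range among lower peaks with -1.48 in batch 1 and -0.42 in batch 2. In batch 2 alone edgeR called 14 lower and 3 higher narrow peaks, counts not compared here with the share over all peaks. In batch 1 alone, with 2 animals per genotype, it called 0, as it did over all peaks. There 40 of the 800 narrow peaks tested, and 1828 peaks over the whole table, had an unadjusted p under 0.05. Values of cKO lay below those of controls without overlap within both batches at 33 tested narrow peaks and above them at 28, or 3.17% and 2.69%, against 7.59% and 3.94% of all tested peaks. Of the called peaks, 15 lower and 6 higher ones were among these.

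At the width limit of 2000 bp, the 9 members of 1991 bp had control means of 3.74 to 18.8 CPM (median 7.40), and the 13 promoter peaks of 2001 bp just outside had 4.84 to 20.8 CPM (median 8.52). Of these members, Tekt4 and Ube2l6 (the last of the 9 by name) had 5.82 ± 2.06 and 3.74 ± 1.21 CPM in controls and 6.40 ± 2.24 and 5.07 ± 0.62 CPM in cKO. Of those just outside, Alox15 and Atp6v1h had 7.77 ± 1.44 and 4.84 ± 0.79 CPM in controls and 7.59 ± 1.04 and 7.67 ± 2.74 CPM in cKO. With the limit at 1000, 1500 or 3000 bp the share of tested peaks that were called was 2.52%, 2.02% and 2.80%.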

How the data were processed

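H3K27me3 CUT&RUN data came from 10 animals (16 libraries, with 2 technical duplicates per animal in batch 2). IgG libraries (6) were not used here. The authors deposited counts of reads or fragments (called reads here) per library for 1 set of 19034 peaks, with an annotation. The submitters' processing notes name MACS2, Novoalign 4.02.02, DESeq2 1.38.1, SAMtools and build mm10, without roles. How peaks were called and reads counted was not given in the sources used here. The labels' protocols describe controls as Jarid2 fl/fl, but genotypes were taken from the sample labels.

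Duplicates were summed. edgeR 4.0.16 (R 4.3.3) with filterByExpr (16307 peaks left), TMM factors and quasi-likelihood tests with a batch term was fitted to all peaks, with p-values adjusted over all of them at a threshold of 0.05. The fits with DESeq2 1.42.0 and limma-voom 3.58.1 were alternatives. An SE is the size of the log2 fold change over the square root of F. Replicates are animals, so p-values measure the spread between animals. Replicate numbers were not used to pair animals in the main fit. Figures used matplotlib 3.10.9.

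The members, the gene lists and symbol families, the rule for named genes and the alternatives were chosen with earlier results of these data known. Named were the 10 lower and 10 higher called peaks with the smallest adjusted p and the same sign in both batches, narrow peaks of Jarid2 and Foxp1, the 3 highest control levels, the 2 smallest p of each list with 3 or more tested peaks, and 2 peaks on each side of the width limit. The CpG check was void for broad promoter peaks (78.3% with a window) and for the lower peaks (72.2%), and is not given for them. Some lists and genes are not reported here.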

Additional observations from a re-analysis of the deposited data

Results flagged for a closer look

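In 6 of the 108 groups of 5 animals examined (53 peaks in each genotype, and the share of reads in narrow peaks), 1 animal stood apart from the other 4 by Dixon's criterion. Chance alone gives about 1 in 20 such groups, and 5.56% were found. At the Micu3 peak control replicate 2 had 1.26 CPM, with the next control at 7.70 CPM; the call was kept without this animal. At the Slc16a7 peak control replicate 1, the control with Cre, had 4.98 CPM, with the next control at 13.3 CPM, and the call was also kept without it. At the Bend3 peak control replicate 1 had 23.9 CPM, with the next at 34.0 CPM. At the Gata4 peak control replicate 5 had 4.08 CPM, above the next at 2.53 CPM. At the Tmem108 peak cKO replicate 1 had 3.20 CPM, below the next at 4.01 CPM. At the Hnf4a peak cKO replicate 4 had 8.02 CPM, above the next at 4.82 CPM.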

How the results depend on the processing

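The 27 calls kept their direction under every setting that gave a value. The main counts were 19 lower and 8 higher peaks. Higher peaks numbered 5 with factors from narrow peaks alone, 4 with abundance offsets, 10 with total counts and 8 with RLE size factors. They numbered 5 without a filter and 5 with at least 50 reads. The batch term, the test and the depth moved both counts (lower and higher): 3 and 0 without the batch term, 1 and 0 with DESeq2, 9 and 1 with the first duplicate only, 8 and 1 with the second, 0 and 0 in batch 1 alone (2 animals per genotype). In batch 2 alone there were 3 higher peaks. Over all peaks the calls fell too, from 1442 to 359 without the batch term and to 797 with DESeq2. Without a batch term the adjusted p of the 27 was 0.029 to 0.259. DESeq2 gave 7 of the 27 no adjusted p and the others up to 0.429, and 24 of the 27 had an unadjusted p under 0.05. At an adjusted p under 0.01 there were 6 and 0, and under 0.1 29 and 19. Width limits of 1000, 1500 and 3000 bp gave 2 and 1, 8 and 4, and 38 and 18, and starts within 1000 bp gave 3 higher peaks. Leaving out 1 animal gave 11 to 25 lower and 3 to 8 higher peaks. The causes were not tested beyond the fewer samples, reads or peaks that some settings hold.

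The replicate numbers gave correlations of -0.44 (replicates 1 and 2), 0.09, 0.01 and 0.04 between animals of the same number. With 2 animals per genotype in batch 1 the deviations mirror each other, so -0.44 is a single value and cannot decide on pairing. Animals of the same number in batch 1 were also of opposite sex. The sample labels give these animals nothing in common but batch and number. With the replicate block, 16 peaks were lower and 6 higher. In batch 2 each animal correlated best with its own number except cKO replicate 4, with 0.014 for control replicate 4 and 0.026 for control replicate 5. This is a hint from the data, not the design, and was not tested.

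Leaving out 1 animal ended these calls: Slc16a7 without cKO replicate 4 (adjusted p = 0.0687), Pdzrn4 without cKO replicate 4 (0.0607), Ccdc85a without cKO replicate 3 (0.0769), Chsy3 without control replicate 4 or cKO replicate 2 (up to 0.055), Dlg2 without control replicate 2 or cKO replicate 2 or 4 (up to 0.0692), Mad2l2 without control replicate 3 or 4 or cKO replicate 3 (up to 0.0873) and Cyp2r1 without control replicate 4 or cKO replicate 2 or 4 (up to 0.0939). The calls of Strbp, Faf1, Adgrl3, Inava, Dcbld2 and Ptchd4 were kept in 4 or 5 fits (adjusted p up to 0.106), those of Bhlhe22, Msgn1, Sh3bp5, Gm10406, Zfp964 and Mef2b in 4 (up to 0.226), and those of Dpep2, F12 and Nubpl in 2 or 3 (up to 0.202).

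Only the named and called peaks were followed through the settings, and among them changes of sign occurred at 7, none of them called. Over all 1040 tested narrow peaks, 589 were above 0 in the main fit, 643 with total counts and 525 with abundance offsets. More narrow peaks than these 7 thus changed sign. The Fkbp6 peak had 0.017 with the total count, 0.36 with the first duplicate only, 0.34 in batch 1 alone and -0.150 to 0.052 without 1 animal. The Pard6b peak had 0.039 with the total count, 0.037 with the second duplicate only and -0.063 to 0.022 without 1 animal. Rpl3 had -0.0031 with the second duplicate and -0.14 in batch 1 alone, where Pcdhga10 had 0.25 and Il9r 0.34. Without 1 animal Jarid2 ranged from -0.239 to 0.071 and Smc1b from -0.195 to 0.290. No difference between batches was called under any of the settings run for it with edgeR or limma-voom. A median of 115.5 reads per peak limits all of these values.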
